A study of Mus musculus with 24 samples.

Results

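Regions marked by H3K27me3, the trimethylation of lysine 27 of histone H3, were compared between the newborn lens and the embryonic forebrain of the mouse. The regions are islands, stretches of the genome in which ChIP reads exceed control reads, as listed by the authors for each tissue. All autosomal islands of both lists were taken, 23959 of 31034 in lens and 21640 of 25473 in forebrain, together 45599 of 56507. The remaining 7075 lens islands and 3832 forebrain islands lay on chromosome X, and 1 forebrain island lay on chromosome Y. The islands were compared in width, in ChIP reads per kb, in overlap, where 1 shared bp was enough, and in the active marks that lay on them.

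The lens samples came from dissected lenses of CD-1 mice at P1, the first postnatal day, and the forebrain samples from CD-1 embryos at E12.5, in mid-gestation. No genotype or treatment is given beyond the strain, so all animals are taken as they are labelled. Tissue and age cannot be told apart, and the labels give neither the sex nor the number of the animals. Each tissue had 1 H3K27me3 library, made with the same antibody lot, so the comparisons have no replicate check and carry no p-value. The intervals given are exact 95% intervals that cover counting error within a list only. The marks set beside the islands were H3K4me3, H3K27ac and H3K4me1, of which H3K4me3 and H3K27ac are called active marks here, with RNA polymerase II and Pax6 peaks of both tissues, open chromatin by FAIRE in lens, and RNA-seq of lens epithelium, lens fibers and forebrain, from animals of the same strain and ages.

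H3K27me3 is written by Polycomb repressive complex PRC2, in which Ezh2 or Ezh1 is the methyltransferase and Eed and Suz12 are needed for activity. Eed also binds the finished mark, which lets the complex spread it over neighbouring nucleosomes, and the Cbx subunits of PRC1 read it. In developing tissues the mark covers silent developmental genes, often as broad domains, while H3K4me3 is found at promoters, H3K27ac at active promoters and enhancers, and H3K4me1 at enhancers. Where H3K4me3 and H3K27me3 are both found at a promoter, the promoter is called bivalent. In a mixed tissue the same overlap also arises when different cells carry each mark, so the word is not used for the counts here.

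Marker genes in the RNA libraries followed the tissue labels. Of 11 lens markers, such as the crystallin Cryaa and the fiber protein Bfsp1, 11 reached 1 RPKM in lens epithelium, 10 in lens fibers and 6 in forebrain. Of 9 forebrain markers, such as the transcription factors Emx1 and Emx2, 2 did so in lens epithelium, 1 in lens fibers and 9 in forebrain. Foxe3 and Pitx3 of the lens list were at 0 in forebrain, and of the forebrain list 1 gene was at 0 in lens epithelium and 7 were at 0 in lens fibers. Summed blood markers stood at 170.8 RPKM in lens epithelium, 3.55 RPKM in lens fibers and 979.0 RPKM in forebrain. Vessel markers summed to 32.7, 0.604 and 17.6 RPKM in the same order, and myeloid markers to 4.06, 0.234 and 2.46 RPKM. These RNA samples are not the ChIP samples, and the part of such cells in the island lists was not tested. In these bulk tissues, fewer cells with the mark and less of the mark per cell cannot be told apart.

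Lens islands were more numerous, narrower and sparser in reads than forebrain islands. The 23959 lens islands covered 96.1 Mb and held 2.85 M ChIP reads, while the 21640 forebrain islands covered 153 Mb and held 8.54 M. The median width was 2800 bp in lens and 4800 bp in forebrain, a lens over forebrain ratio of 0.583. The 10th and 90th percentiles of width were 1400 and 7400 bp for lens islands, and 2400 and 13200 bp for forebrain islands, so the width ranges overlapped widely. The difference was larger among wide domains. Islands of at least 10 kb numbered 1288 (5.38%) in lens and 3686 (17.0%) in forebrain. Islands of at least 50 kb numbered 18 and 138, and those of at least 100 kb numbered 3 in lens and 17 in forebrain. Forebrain islands were the wider ones by median on all 19 autosomes. Lens islands outnumbered forebrain islands on 17 of the 19 autosomes, the exceptions being chromosomes 16 and 18. The sources used here do not give library depth, and its part in the number and width of islands was not tested.

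A median of 22.1 ChIP reads per kb lay in lens islands (interval 22.0 to 22.1) and 30.0 in forebrain islands (29.7 to 30.2), a ratio of 0.736. The upper tail of the forebrain list reached further, with a 90th percentile of 36.4 reads per kb in lens and 76.3 in forebrain. Control reads were also sparser in lens, with a median of 5.19 per kb against 7.5 in forebrain. The authors' ratio of ChIP to control reads per island, which is scaled by library size, had a median of 3.07 in lens and 3.06 in forebrain. It is the authors' value, and it is used below only to describe islands within a list. The order of the tissues in reads per kb depended on the scaling. Per M reads (counted in autosomal islands) the medians were 7.74 in lens and 3.51 in forebrain, a ratio of 2.20, the reverse of the unscaled order. The sources used here do not give the depth of the libraries, and neither scale shows more or less mark per cell.

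**Figure D1:**
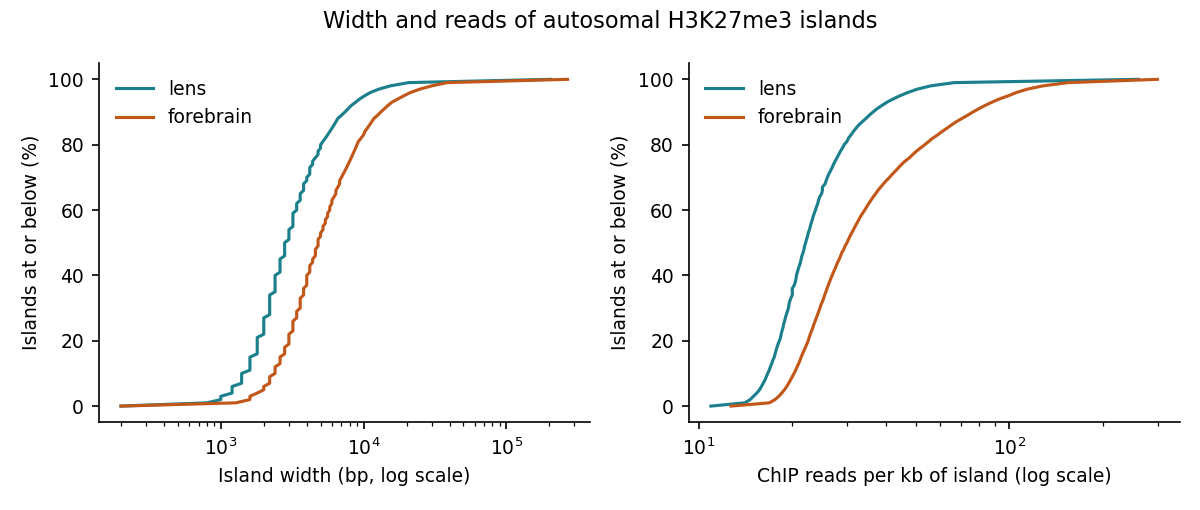
Cumulative share of autosomal H3K27me3 islands (percent) by island width in bp, left, and by ChIP reads per kb, right, both on log axes. Each panel has 1 curve for lens at P1 and 1 for forebrain at E12.5. The lens curve lies left of the forebrain curve in both panels, with medians of 2800 and 4800 bp and of 22.1 and 30.0 reads per kb.

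Reads were concentrated in the widest islands of each list. The widest 10% of islands held 32.3% of the lens and 34.5% of the forebrain island bp, but 45.8% of the lens and 53.0% of the forebrain ChIP reads. A few narrow islands had high counts of a different kind. Islands with at least 5 times the median control reads per kb numbered 10 in lens and 5 in forebrain. The 4 lens islands with the most ChIP reads per kb were all of this kind and 0.2 to 0.6 kb wide, and they were left out when regions were named, except under the rule on reads per kb.

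More of the lens islands were found in forebrain than the reverse. Of the lens islands, 14137 (59.0%, interval 58.4% to 59.6%) overlapped a forebrain island, and 9822 did not. Of the forebrain islands, 11187 (51.7%, 51.0% to 52.4%) overlapped a lens island, and 10453 did not. These last groups are called lens-only and forebrain-only, a term for the lists and not a statement that the other tissue lacked the mark. The shared 60.3 Mb made up 62.8% of the lens island bp and 39.4% of the forebrain island bp. Forebrain islands covered 153 Mb and lens islands 96.1 Mb, and the part of this in the shares of islands was not tested. Shared islands held 79.2% of the ChIP reads in lens islands and 77.4% of those in forebrain islands.

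As listed, the typical arrangement was a narrow lens island inside a wider forebrain island, and the part of library depth in this was not tested. Of the shared lens islands, 9184 (65.0%) lay wholly within forebrain islands, while 1465 (13.1%) of the shared forebrain islands lay wholly within lens islands. Of the shared lens islands, 13820 met 1 forebrain island, 299 met 2, and 18 met 3 or more. Of the shared forebrain islands, 8810 (78.8%) met 1 lens island, 1818 (16.3%) met 2, and 559 (5.0%) met 3 or more, up to 11. The forebrain islands with several lens partners were the broad ones, with a median width of 5000 bp for 1 partner, 10200 bp for 2 and 24600 bp for 3 or more. When islands under 3 kb apart were joined within each tissue, 58.2% of lens and 55.4% of forebrain islands were shared, which narrows the gap between the lists.

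The share of lens islands found in forebrain was the higher one on 18 of the 19 autosomes, the exception being chromosome 15. It ran from 50.4% on chromosome 6 to 66.1% on chromosome 19 for lens islands, and from 42.9% on chromosome 16 to 57.0% on chromosome 4 for forebrain islands.

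Wide islands were shared most often in both lists. Among lens islands the shared percentage was 47.2% under 2 kb, 52.0% from 2 to 4 kb, 73.0% from 4 to 8 kb, 89.1% from 8 to 16 kb and 92.7% at 16 kb or more. Among forebrain islands it was 28.9%, 39.1%, 52.7%, 68.1% and 76.6% in the same bins. A wider island offers more bp to be met by chance, and its part in this order was not tested. Within each width bin the lens percentage was the higher one. Enrichment showed the same order, with 38.8% of lens islands in the lowest and 81.3% in the highest quartile of the authors' ratio shared, and 39.0% and 75.6% of forebrain islands. Of the 100 widest islands, 96 in each list were shared.

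**Figure D2:**
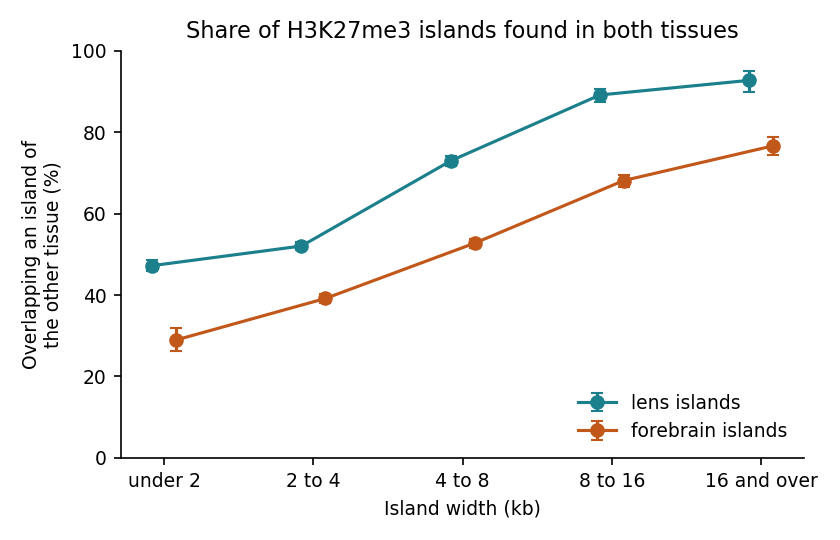
Percentage of autosomal H3K27me3 islands that overlapped an island of the other tissue by at least 1 bp, by island width in kb, for lens islands and forebrain islands, with exact 95% intervals of counting error. The percentage is higher in each wider bin, 47.2% to 92.7% for lens and 28.9% to 76.6% for forebrain, with lens above forebrain in all 5 bins.

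Tissue-only islands were narrower and carried fewer reads than shared ones in both tissues. In lens the median width was 3400 bp for shared and 2400 bp for lens-only islands, and the reads per kb were 24.5 and 20, and the authors' ratio 3.51 and 2.63. In forebrain the median width was 6000 bp for shared and 4000 bp for forebrain-only islands, and the reads per kb were 37.2 and 26.1, with ratios of 3.72 and 2.68. How many tissue-only islands fell just short of the caller's threshold in the other tissue was not tested. Most did not sit beside an island of the other tissue. The nearest forebrain island lay a median of 23.2 kb from a lens-only island, with 4.81% within 1 kb and 68.1% within 50 kb. The nearest lens island lay a median of 38.4 kb from a forebrain-only island, with 2.94% within 1 kb and 55.7% within 50 kb.

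Most of the broadest domains were common to both tissues. Of the 20 widest islands, 19 in lens and 20 in forebrain were shared. The pairs described next were chosen by their shared bp. The pair with the most shared bp, coordinates here and below being on mm9, lay on chromosome 15. The lens island ran over 102712401 to 102916400 (204 kb) and the forebrain island over 102715201 to 102983600 (268.4 kb), each the widest of its list. It held 88.3 reads per kb in lens and 220.3 in forebrain, with 2 forebrain H3K27ac peaks on the forebrain island and no H3K4me3 peak of either tissue. The next pair, on chromosome 11, was a lens island at 96103001 to 96248600 and a forebrain island at 96084401 to 96248600, with the same right edge and no H3K4me3, H3K27ac or H3K4me1 of either tissue. On chromosome 4 the lens island at 115559001 to 115661200 (52.4 reads per kb) met the forebrain island at 115560001 to 115672400 (133.9 reads per kb), with 1 forebrain H3K4me3 peak on it. The remaining pairs were 2 lens islands on chromosome 6, at 52142001 to 52210000 and at 52211201 to 52279400, which lay next to each other inside 1 forebrain island at 52142001 to 52283800. That forebrain island held 270.3 reads per kb, and the lens islands 105.1 and 82.1, with none of the active marks on them. The lens islands of all 5 pairs thus lay almost entirely within forebrain islands, and 1 of the 5 pairs carried an H3K4me3 peak.

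The lens island with the most reads per kb, outside those rich in control reads, lay on chromosome 2 at 61650601 to 61653200 (137.3 reads per kb, 2.6 kb) and overlapped a forebrain island. Several of the forebrain islands with the most reads per kb were broad and lay close together. Leaving out a 0.2 kb island rich in control reads, they were a 4.6 kb island on chromosome 18 (299.6 reads per kb), 2 neighbours on chromosome 2 at 74544001 to 74601000 (299.4) and 74506801 to 74543200 (288.7), and an island on chromosome 6 at 52090601 to 52141200 (279.0). All 4 overlapped a lens island. The last of them lay directly before the 141.8 kb forebrain island described above.

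Lens-only islands seldom carried H3K4me3, while shared islands carried it more often. H3K4me3 of lens lay on 8.95% of all lens islands and H3K4me3 of forebrain on 7.46%. Among lens-only islands these shares were 1.72% (1.47% to 2.0%) and 2.01% (1.74% to 2.30%), and among shared lens islands 14% (13.4% to 14.6%) and 11.3% (10.7% to 11.8%). Per Mb of island, lens H3K4me3 peaks numbered 6.81 in lens-only and 32.7 in shared islands, so the difference was also seen per Mb. Promoter marks of either tissue were thus rare at the lens-only islands.

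H3K27ac was less frequent in lens than in forebrain at lens islands of both classes. It lay on 3.17% of all lens islands for the lens and on 10.1% for the forebrain. At lens-only islands the shares were 1.52% for lens and 6.24% for forebrain H3K27ac, and at shared lens islands 4.32% and 12.8%. H3K4me1 showed the same order, on 11.9% of all lens islands in lens and on 27.9% in forebrain, on 6.87% and 17.3% of lens-only islands and on 15.4% and 35.3% of shared lens islands. The forebrain lists of H3K27ac and H3K4me1 are the longer ones, with 19734 lens and 26231 forebrain H3K27ac peaks and with 20756 lens and 40434 forebrain H3K4me1 islands on autosomes. To take list length into account, the share of each tissue's own list for a mark that lay on H3K27me3 islands was compared. This counts peaks and not islands, so several peaks on 1 island all count. For H3K27ac the lens share was 0.320 of the forebrain share at lens-only islands, 0.467 at shared lens islands and 0.434 over all lens islands. For H3K4me1 the same ratios were 0.787, 0.848 and 0.837, so lens-only islands lay close to all lens islands.

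Taking H3K4me3 and H3K27ac as 1 class of active marks, 9.97% of lens islands had a lens mark and 12.9% a forebrain mark. At lens-only islands the shares were 2.36% (232 islands) and 6.57% (645 islands), a lens minus forebrain difference of -4.20 percentage points. An active mark in lens alone was listed at 31 (0.316%) lens-only islands, in forebrain alone at 444 (4.52%) and in both tissues at 201 (2.05%). The remaining 9146 (93.1%) had no active mark in either tissue. Each of the 3 states was more frequent at shared lens islands, with 5.41% in lens alone, 7.47% in forebrain alone and 9.84% in both. At shared lens islands the difference was -2.06 points, from 15.3% in lens and 17.3% in forebrain. Islands listed in lens alone thus carried forebrain active marks more often than lens ones, although most carried neither.

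At forebrain-only islands, taking list length into account changed the order of the tissues for H3K27ac and H3K4me1, but not for H3K4me3. Over all forebrain islands, H3K4me3 lay on 17.7% in lens and 15.0% in forebrain, H3K27ac on 9.18% and 15.3%, and H3K4me1 on 20.4% and 39.5%. The class of active marks lay on 20.4% in lens and 21.8% in forebrain. At forebrain-only islands a lens active mark lay on 15.6% and a forebrain active mark on 15.2%, a difference of 0.411 points that is smaller than the intervals of the shares (14.9% to 16.3% and 14.5% to 15.9%). With gaps of up to 1 kb counted as overlap, between islands and between island and peak, the shares were 21.6% and 22.7%, a difference of -1.14 points in the other direction. Of each tissue's own list of active marks, the lens share on forebrain-only islands was 1.37 times the forebrain share. Over all forebrain islands it was 1.04 times. This ratio, which counts peaks and not islands, was 0.440 at lens-only, 0.815 at shared lens and 0.747 over all lens islands. By mark, the ratio at forebrain-only islands was 1.44 for H3K27ac, 1.24 for H3K4me3 and 1.17 for H3K4me1, and over all forebrain islands it was 0.874, 1.13 and 1.02. Active marks in lens alone were listed at 504 (4.82%) forebrain-only islands, in forebrain alone at 461 (4.41%), and in both tissues at 1124 (10.8%). Shared forebrain islands had higher shares, with 6.02% in lens alone, 9.11% in forebrain alone and 18.9% in both.

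As shares of islands, without regard to list length, the sign of the difference varied with the mark. H3K4me3 lay on 12% of forebrain-only islands in lens and on 9.38% in forebrain, H3K27ac on 10.01% and 10.8%, and H3K4me1 on 21.4% and 37.4%. RNA polymerase II peaks were rare at H3K27me3 islands of every class. They lay on 65 forebrain-only islands in lens and on 16 in forebrain, and on 4 lens-only islands in lens and 9 in forebrain, from lists of 3302 lens and 1684 forebrain peaks. At shared forebrain islands H3K27ac lay on 8.4% in lens and 19.5% in forebrain. Per Mb of island, lens H3K27ac peaks numbered 26.6 at forebrain-only and 15.6 at shared forebrain islands, and forebrain H3K27ac peaks 24.6 and 33. Lens H3K27ac was thus more frequent at forebrain-only than at shared forebrain islands, and forebrain H3K27ac less frequent.

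**Figure D3:**
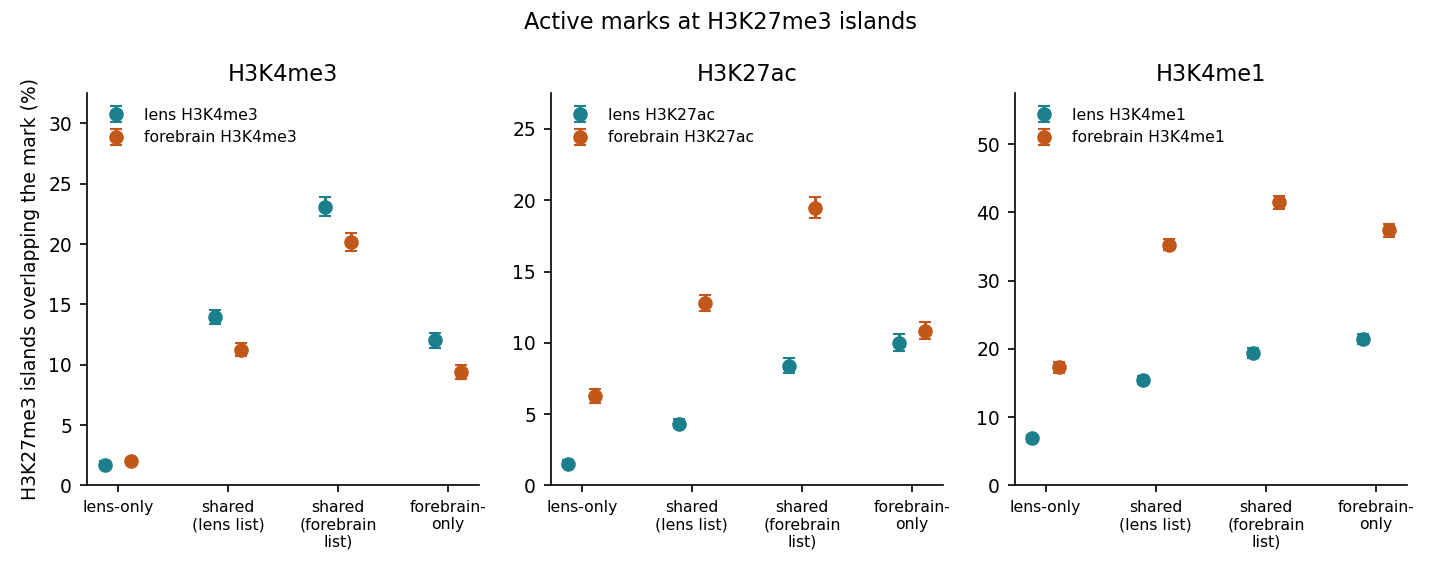
Percentage of islands that overlapped a peak or island of each mark, for lens-only, shared and forebrain-only H3K27me3 islands, with lens marks left of forebrain marks and exact 95% intervals of counting error. H3K27ac lies on 1.52% of lens-only islands in lens and on 6.24% in forebrain, and on 10.01% and 10.8% of forebrain-only islands.

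Where H3K4me3 was listed on a shared lens island, it mostly came without H3K27ac in lens. Of the 1976 shared lens islands with lens H3K4me3, 1545 (78.2%) had no lens H3K27ac, and of the 1591 with forebrain H3K4me3, 642 (40.4%) had no forebrain H3K27ac. In the shared forebrain islands these shares were 71.8% for lens and 42.6% for forebrain marks. At forebrain-only islands they were nearly alike, 46.3% for lens and 46.0% for forebrain. At lens-only islands they differed, with 49.1% of 169 islands for lens and 16.2% of 197 islands for forebrain. The difference in H3K27ac list length bears on these values and its part was not tested.

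Seen from the promoter mark, H3K4me3 peaks listed in 1 tissue lay in H3K27me3 islands more often than peaks listed in both. Of the 2087 lens H3K4me3 peaks that overlapped no forebrain H3K4me3 peak, 33.5% lay in lens islands and 58.1% in forebrain islands. Of the 13668 lens peaks listed in both tissues, 12.4% lay in lens islands and 23.1% in forebrain islands. The 1144 peaks listed in forebrain alone lay in lens islands in 43.4% of cases and in forebrain islands in 50%, while 11.3% and 22.5% of the 13749 forebrain peaks listed in both tissues did. Tissue-only promoter marks thus met the repressive mark in the tissue that lacked the peak and also in the tissue that had it. H3K27me3 islands of both tissues were present at 32.1% of the lens-alone and 37.8% of the forebrain-alone peaks, against 13.6% of all lens and 11.9% of all forebrain H3K4me3 peaks. An island of the tissue without the peak, and none in the tissue with it, was present at 26.0% of the lens-alone and 5.59% of the forebrain-alone peaks, against 14.2% of all lens and 1.89% of all forebrain H3K4me3 peaks.

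H3K27ac peaks met islands less often than H3K4me3 peaks. Of the 6339 H3K27ac peaks listed in lens alone, 7.45% lay in lens islands and 25.6% in forebrain islands, against 4.66% and 10.3% of the 13395 lens peaks listed in both tissues. Of the 14004 H3K27ac peaks listed in forebrain alone, 19.1% lay in lens islands and 22.4% in forebrain islands, against 5.58% and 11.6% of the forebrain peaks listed in both. Forebrain islands cover more bp and held the larger share of peaks of every class. Over all H3K27ac peaks, 5.55% of lens peaks lay in lens islands and 15.2% in forebrain islands, and 12.8% of forebrain peaks lay in lens islands and 17.4% in forebrain islands.

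**Figure D4:**
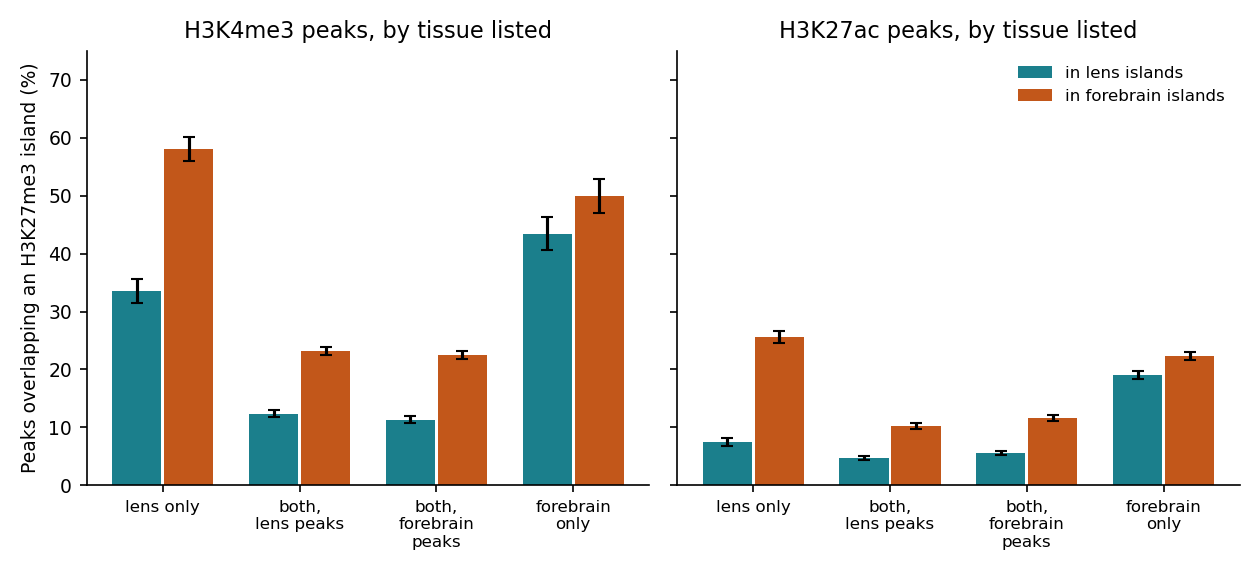
Percentage of H3K4me3 and H3K27ac peaks that overlapped a lens or a forebrain H3K27me3 island, for peaks listed in lens alone, in forebrain alone and in both tissues, with exact 95% intervals of counting error. H3K4me3 peaks of lens alone lie in lens islands in 33.5% and in forebrain islands in 58.1% of cases, against 12.4% and 23.1% of lens peaks listed in both tissues.

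H3K4me3 lay more centrally in shared than in tissue-only islands. In shared lens islands 40.8% of the 2263 overlaps with lens H3K4me3 peaks had the peak's midpoint in the central 0.5 of the island, and 36.7% had it outside the island. In lens-only islands these were 26.0% and 49.0% of 196 overlaps. In shared forebrain islands 55.6% of 2701 overlaps with forebrain H3K4me3 had a central midpoint and 21.3% an outside one, against 29.7% and 45.4% of 1051 overlaps in forebrain-only islands. The midpoint of the H3K4me3 peak thus lay outside the island in a larger share of overlaps at tissue-only than at shared islands. Tissue-only islands were also narrower, and the part of width in this was not tested.

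The widest lens-only island lay on chromosome 10 at 98085801 to 98162000 (76.2 kb, 49.1 reads per kb), with no lens H3K4me3, H3K27ac or H3K4me1, 1 forebrain H3K27ac peak and 5 lens FAIRE regions. The next, on chromosome 15 at 66681001 to 66729400 (48.4 kb), had 1 forebrain H3K27ac peak and 3 forebrain H3K4me1 islands, and none of these marks in lens. The remaining 3 lay on chromosome 11, at 68083601 to 68119600, 81958201 to 81991000 and 68040401 to 68068000, with 35.0, 38.8 and 27.2 reads per kb. None of the 5 had an H3K4me3 peak of either tissue. The widest lens-only domains thus held no lens H3K27ac and at most 1 forebrain H3K27ac peak each.

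The widest forebrain-only islands differed among themselves. The first, on chromosome 2 at 109758601 to 109852200 (93.6 kb, 114.1 reads per kb), held 9 lens H3K27ac peaks, 2 lens H3K4me3 peaks and 11 lens FAIRE regions, and no forebrain H3K4me3 or H3K27ac. The fifth, on chromosome 3 at 55543801 to 55597400 (53.6 kb, 124.1 reads per kb), held 11 lens H3K27ac, 4 lens H3K4me3 and 2 lens RNA polymerase II peaks, and again no forebrain H3K4me3 or H3K27ac. The islands on chromosome 6 at 138505401 to 138572200 (66.8 kb) and on chromosome 9 at 47914001 to 47969800 (55.8 kb) had no H3K4me3 or H3K27ac of either tissue. The island on chromosome 2 at 63887401 to 63943600 (56.2 kb) had both, with 2 lens and 3 forebrain H3K4me3 peaks and 3 lens and 2 forebrain H3K27ac peaks. Wide forebrain-only domains thus included regions with active marks in lens alone, in both tissues and in neither.

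The lens-only islands with the most bp of forebrain active marks, and no lens one, were narrower than the widest lens-only islands. The first lay on chromosome 13 at 84892401 to 84902800 (10.4 kb, 29.0 reads per kb), with 3 forebrain H3K27ac peaks over 9990 bp and 1 forebrain Pax6 peak. Neighbouring islands on chromosome 11, at 23982401 to 23992000 and 23992801 to 23998200, held 5 and 4 forebrain H3K27ac overlaps, with 21.6 and 17.0 H3K27me3 reads per kb in lens. The others lay on chromosome 16 at 23517601 to 23523000, with 1 forebrain H3K4me3 and 1 forebrain H3K27ac peak, and on chromosome 12 at 51218201 to 51223800, with 3 forebrain H3K27ac and 2 forebrain Pax6 peaks. The 444 islands of this group had a median of 21.1 reads per kb, near the 20 of lens-only islands as a whole.

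The forebrain-only islands with the most bp of lens active marks, and no forebrain one, began with the chromosome 3 island above, with 12125 bp of lens peaks. The next, on chromosome 5 at 35732001 to 35753800 (21.8 kb), had 187.8 H3K27me3 reads per kb in forebrain, the most of any forebrain-only island, with 7 lens H3K27ac and 3 lens H3K4me3 peaks. After the chromosome 2 island came an island on chromosome 10 at 20802001 to 20823800, with 7 lens H3K27ac and 3 lens H3K4me1 intervals and 2 Pax6 peaks of each tissue. The fifth, on chromosome 19 at 22764201 to 22780800, had 2 lens RNA polymerase II and 2 lens Pax6 peaks. Such islands were a small group of 504, but with a median of 34.3 reads per kb they were richer in H3K27me3 than forebrain-only islands as a whole, at 26.1. All of these regions were chosen by their marks, so their marks are given as a description. Genes at these positions were not analysed here.

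To compare the same domains directly, the 8367 pairs in which 1 lens island overlapped 1 forebrain island and no other were taken. The lens island was the wider one in 1922 pairs (23.0%), the forebrain island in 6090 (72.8%), and the widths were equal in 355. In 58.9% of pairs the lens island lay within the forebrain island, and in 1271 pairs both edges were within 400 bp. The median log2 ratio of lens over forebrain was -0.43 for width and -0.59 for reads per kb. Reads per kb went together between the tissues across pairs (Spearman rho 0.568), while control reads per kb did not (0.018). Pairs are not replicates, both measures come from 1 library a tissue, and rho is given as a description.

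Set against the median pair, reads per kb were 2-fold or more above it in lens over forebrain in 206 pairs (2.46%), and 2-fold or more below it in 653 pairs (7.80%). The pairs that were low in lens over forebrain had medians of 24.7 reads per kb in lens and 90.8 in forebrain. Over all pairs the medians were 24.1 and 35.0. Their lens reads were thus not below those of all pairs, and the low ratio went with high forebrain reads. The pairs were chosen by this ratio, so their reads are given as a description. Marks were counted on the forebrain island of each pair. Lens H3K4me3 lay on 47.6% (43.7% to 51.5%) of these pairs, against 21.4% of all pairs. Forebrain H3K4me3 lay on 29.9%, against 19%, and lens H3K27ac on 15.0%, against 7.70%. The pairs that were high in lens over forebrain had medians of 32.5 reads per kb in lens and 21.1 in forebrain. Of these, 12.6% (8.41% to 17.9%) had lens H3K4me3 and 30.1% (23.9% to 36.9%) had forebrain H3K27ac, against 21.4% and 18.2% of all pairs. Pairs low in lens over forebrain thus carried H3K4me3 more often than all pairs, by a larger margin for lens than for forebrain peaks. Pairs high in lens over forebrain carried forebrain H3K27ac more often. Width moved with these groups. Its medians were 3800 bp in lens and 6600 bp in forebrain for pairs low in lens over forebrain. They were 2400 and 4100 bp for pairs high in lens over forebrain. The parts of width and of forebrain reads in the mark shares were not tested. Both lists stop at the caller's threshold, and no lens island held under 10.9 and no forebrain island under 12.7 reads per kb.

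**Figure D5:**
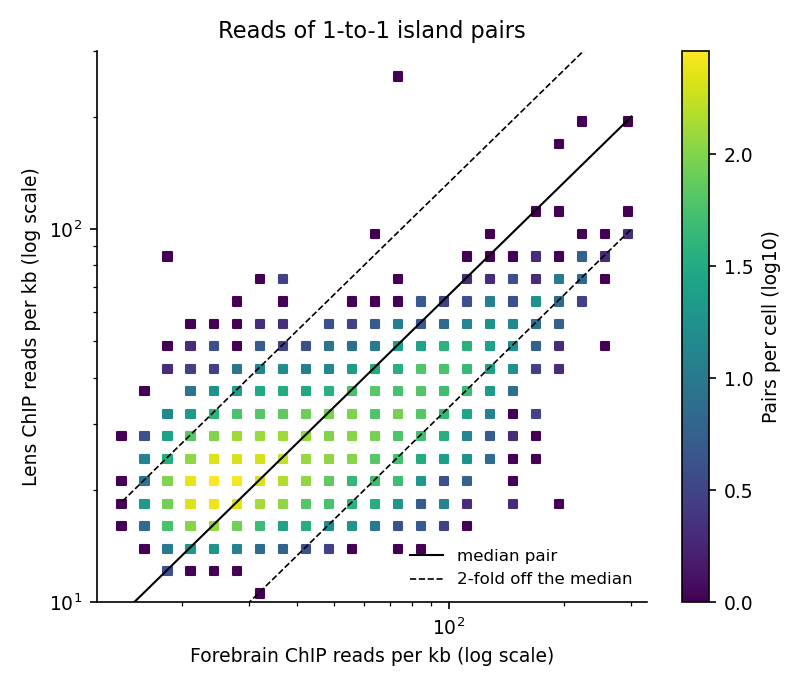
H3K27me3 ChIP reads per kb of the lens island (vertical) against that of the forebrain island (horizontal), on log axes. The 8367 pairs of 1 lens and 1 forebrain island are shown in cells coloured by number of pairs, on a log scale. Lines mark the median pair and 2-fold above and below it. The 653 pairs low in lens over forebrain spread to the right, at a median of 24.7 reads per kb in lens and 90.8 in forebrain. The other group, 206 pairs, lies high in lens over forebrain.

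RNA of several members of the Polycomb machinery was lower in lens fibers than in forebrain. In lens epithelium the share of members that were lower was close to that of all genes. The 25 genes listed, called members here, included the H3K27 demethylase genes Kdm6a and Kdm6b. Of the 25, 22 reached 1 RPKM in at least 1 library of each comparison, Kdm6a among them. In lens epithelium 0 were higher than in forebrain and 3 of 22 (13.6%) were lower by 2-fold or more on the log2(RPKM + 1) scale. Of all genes, 13.7% were higher and 11.9% lower. Ezh2, the main PRC2 methyltransferase of dividing cells, stood at 9.63 RPKM in epithelium and 31.3 RPKM in forebrain, a log2 ratio of -1.60. Cbx2 (-1.71) and Phc2 (-1.24), both PRC1 subunits, were the others. Relative to the median of all genes (-0.03), 1 member, Aebp2, was higher, with a log2 ratio of 0.98 before centring. Ezh1, the methyltransferase that non-dividing cells also express, stood at 2.39 RPKM in epithelium, 2.35 RPKM in fibers and 1.78 RPKM in forebrain.

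In lens fibers 0 members were higher and 11 of 22 (50%) lower by at least 2-fold, where 15.9% of all genes were higher and 31.6% lower. Ezh2 stood at 3.997 RPKM in fibers and 31.3 RPKM in forebrain, a log2 ratio of -2.69. Eed had a log2 ratio of -2.12, Suz12 of -1.25 and Mtf2, a PRC2 partner that binds DNA, of -2.04. The median of the 22 was -0.95 and that of all genes -0.41 in this comparison, and relative to the median of all genes 6 members (27.3%) were lower, against 20.3% of all genes. The H3K27 demethylase gene Kdm6a was within 2-fold in both comparisons, and Kdm6b, under 1 RPKM in all 3 libraries, was not compared. With 1 library a group these values have no replicate check, and whether they bear on the islands was not tested.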

How the data were processed

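SICER islands of H3K27me3 and H3K4me1 were called by the authors on mm9, per the submitters' processing notes. Windows (200 bp), gaps (600 bp) and FDR (0.001) come from the labels in the list names. The deposited tables hold each island's count of ChIP reads, count of control reads, p-value, ratio (fold) of ChIP to control after scaling by library size, and FDR. The sources used here do not give the control libraries, the aligner or the depths. Other peaks and FAIRE regions were called by the authors with MACS2, per the submitters' processing notes, and the deposited peak lists give a −log10 q-value and a fold enrichment. RNA was read as RPKM from the authors' table, for which the submitters' processing notes name TopHat2, Cufflinks and Cuffdiff.

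Island width (end − start + 1), reads per kb and overlaps of at least 1 bp were computed on autosomes 1 to 19 in Python 3.11.15 with pandas 2.3.3 and scipy 1.17.1. The overlap code was tested on simulated data, where it recovered 200 of 200 planted overlaps and called 0 of 200 intervals placed in gaps. Its counts equalled those of bedtools 2.31.1 in 14 of 14 settings. Shares have exact Clopper-Pearson 95% intervals and medians have exact order-statistic ones. Reads are not independent molecules and islands are not replicates, so these cover counting error only. For RNA, log2((RPKM + 1)/(RPKM + 1)) was taken for genes that reached 1 RPKM in either of the libraries compared.

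Regions named are the 5 shared pairs with most shared bp and, for each list, the 5 widest tissue-only islands, the 5 tissue-only islands with the most bp of active marks of the other tissue alone, and the 5 islands with most reads per kb. Islands with at least 5 times the median control reads per kb were left out of all but the last. The islands, gene lists and comparisons were chosen with earlier results of these data known. Of the forebrain markers chosen, 1 is not reported here. Coordinates are 1-based. Alternatives tried were other overlap rules, a minimum ratio of 2, equal list lengths, joined islands, chromosome X, removal of islands rich in control reads, peaks with a −log10 q of at least 5, scaling by island reads, subtraction of scaled control reads, and for RNA another pseudocount, no filter and centring.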

Additional observations from a re-analysis of the deposited data

Results flagged for a closer look

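The comparisons above used autosomes, and chromosome X held islands that they did not use. The lens list had 7075 islands on chromosome X (22.8% of the list) and the forebrain list had 3832 (15.0%). They covered 27.6 Mb in lens and 32.1 Mb in forebrain, with median widths of 3000 and 5600 bp and medians of 20 and 22.9 ChIP reads per kb. More of them were shared than on autosomes, 70.3% of the lens and 82.8% of the forebrain islands. Active marks of lens lay on 1.78% of the lens islands there and active marks of forebrain on 2.97%. For the forebrain islands of chromosome X these were 4.75% and 6.34%. The forebrain list also held 1 island on chromosome Y, and the lens list held 0. The labels do not give the sex of the animals, and no explanation was tested.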

How the results depend on the processing

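Of 56 results recomputed under another setting, 32 kept their direction and changed by less than the counting error or count margin allowed, 22 moved by more and 2 reversed. The difference in active marks at forebrain-only islands (0.411 points) is small beside that error, and without reversing it ran from 0.0802 with joined islands to 0.947 at a ratio of at least 2. The reversed ones were the difference in active marks at forebrain-only islands, 0.411 points as reported and -1.14 with gaps of up to 1 kb, and the ratio of reads per kb, 0.736 as reported and 2.20 per M island reads. The share of lens islands that were shared (59.0%) was 57.3% when the overlap had to reach 0.5 of the shorter island, 61.0% with gaps of up to 1 kb, 55.5% at a ChIP over control ratio of at least 2, 61.5% with equal list lengths, 58.2% with islands under 3 kb apart joined and 61.6% with chromosome X. The forebrain share (51.7%) was 50.7%, 53.1%, 49.1% with equal lengths, 55.4% joined and 56.4% with chromosome X, so lens had the higher share throughout. The active mark difference at lens-only islands (-4.20 points) was -4.82 with gaps and -3.61 with chromosome X. The width ratio (0.583) was 0.56 at a ratio of at least 2, 0.567 joined and 0.6 with chromosome X. The ratio of reads per kb (0.736) was 0.683 at a ratio of at least 2, 0.756 with equal lengths, 0.694 joined and 0.762 with chromosome X. Polycomb genes past 2-fold in epithelium numbered 5 with a pseudocount of 0.1 and 4 relative to the median of all genes (3 as reported), and in fibers 6 relative to the median of all genes, a setting chosen after seeing the data (11 as reported). The causes of these moves were not tested. No paired analysis was possible because each tissue had 1 H3K27me3 library and no test was made. The depth behind the lists is unknown, so an island listed in 1 tissue may lie below the threshold in the other.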

Other observations

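Open chromatin and Pax6 were also counted on the islands. Lens FAIRE regions lay on 5.41% of lens-only islands, 11.5% of shared lens islands, 19% of shared forebrain islands and 18.3% of forebrain-only islands. Per Mb these were 20.5, 27.6, 28.6 and 41.9 regions, highest in the islands listed in forebrain alone. Lens Pax6 peaks were also most frequent per Mb in forebrain-only islands, with 2.44 in lens-only, 2.20 in shared lens, 2.53 in shared forebrain and 4.48 in forebrain-only islands. Forebrain Pax6 peaks numbered 2.72, 5.73, 5.37 and 7.74 per Mb in the same classes. FAIRE was run in lens alone, so these values have no forebrain counterpart.

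The narrowest forebrain islands, shared or not, carried active marks more often than those from 2 to 4 kb. Under 2 kb, 32.8% of the 751 forebrain-only islands had a lens active mark and 30.4% a forebrain one, while from 2 to 4 kb the shares were 14.1% and 13.9% of 4201 islands. Shared forebrain islands had a lens active mark in 26.8% and a forebrain one in 32.4% of 306 islands under 2 kb, and in 17.4% and 22.9% of 2702 islands from 2 to 4 kb. From 8 to 16 kb the shares were 31.9% and 33.6% of 2677 shared islands, and 13.7% and 14.4% of 1253 forebrain-only islands. Among shared forebrain islands the narrowest thus did not have the highest shares. Lens-only islands did not show the higher shares under 2 kb. Their shares were 2.24% and 5.35% of 2727 islands under 2 kb, and 2.12% and 6.07% of 5420 islands from 2 to 4 kb.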
